A study of Mus musculus with 16 samples.

Results

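The genes described here carry the liver's handling of iron: Hamp and Hamp2, which encode hepcidin and its close copy, the plasma carrier Trf, the transferrin receptors Tfrc and Tfr2, the exporter Slc40a1, the ferritin subunits Fth1 and Ftl1, and Id1 and Smad7, genes that bone morphogenetic protein (BMP) signals switch on. Their rows were taken by gene symbol, and the list was made with earlier results of these data known. Of the 10 genes, 9 had a row among the 15544 rows of the table, and Hamp2 was not analysed here. The 9 genes were at 1 or more in all 16 libraries, so none depended on the filter that left 12704 genes for testing.

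Bulk RNA was sequenced from the liver of 27-week-old female mice. Control females (Esr1fl/fl) carried the floxed gene of oestrogen receptor-α, and mutant females (Esr1Nkx2-1Cre) carried in addition a Cre recombinase under Nkx2-1, which deletes the receptor in the hypothalamus and not in hepatocytes. Each genotype was fed either chow or, over 17 weeks, a high-fat diet (HFD), which gave 4 groups of 4 libraries: control chow, mutant chow, control HFD and mutant HFD. The study used mice in which the mutants have high bone mass, on a mixed background, and the labels do not say that each library is a separate mouse, so p-values measure the spread between libraries. The comparisons ask whether liver genes differ with genotype on each diet and with diet in each genotype.

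Hepcidin is the hormone by which the liver limits iron entry into plasma. It binds ferroportin, the exporter encoded by Slc40a1, and causes its removal from the cell surface. Hepatocytes make hepcidin in response to BMP6 and BMP2 from sinusoidal endothelium through SMAD proteins, and in response to interleukin-6 through STAT3. Inside cells, iron regulatory proteins bind a short hairpin, the iron-responsive element, in mRNAs of iron genes. They block translation when the element lies in the 5′ untranslated region and protect the mRNA from decay when it lies in the 3′ untranslated region.

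Both routes to hepcidin meet at its promoter, which is why the promoters of Hamp and Hamp2 are shown. The sequences are those of RefSeq on GRCm38.p6, minus strand, at chr7:30944040-30944279 for Hamp and chr7:30924192-30924431 for Hamp2, and each ends shortly before the transcription start. Capitals mark the letters GGCGCC, the core of the BMP response element, and TTCNNNGAA, the site that STAT proteins bind. Both motifs read the same on either strand and do not overlap.
Hamp: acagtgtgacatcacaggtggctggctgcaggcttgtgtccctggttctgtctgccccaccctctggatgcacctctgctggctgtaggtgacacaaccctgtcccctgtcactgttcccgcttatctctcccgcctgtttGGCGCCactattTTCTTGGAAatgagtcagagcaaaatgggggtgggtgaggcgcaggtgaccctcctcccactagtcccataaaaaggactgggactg
Hamp2: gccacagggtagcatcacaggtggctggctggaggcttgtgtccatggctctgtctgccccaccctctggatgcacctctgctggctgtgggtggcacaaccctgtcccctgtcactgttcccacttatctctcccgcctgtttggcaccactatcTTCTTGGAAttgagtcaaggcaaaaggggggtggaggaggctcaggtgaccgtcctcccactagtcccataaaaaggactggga

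The promoter of Hamp held both motifs, with 6 bases between them, and that of Hamp2 held the STAT motif alone. Where Hamp has the BMP motif, Hamp2 differs by the substitution G4A, counted from 1 at the 5′ end of the motif. Over 237 aligned bases the 2 promoters were 92.0% identical. Among 32851 promoter windows of 240 bases, 9.08% held GGCGCC, 6.77% held TTCNNNGAA and 0.353% held both. A match of letters is a description and not evidence of binding. The Hamp and Hamp2 transcripts were 94.6% identical over 410 aligned bases, so the values of Hamp may include reads of Hamp2.

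The iron-responsive elements are shown because they mark which members answer to iron after transcription, which RNA levels of Fth1, Ftl1 and Slc40a1 need not show. Each was found by its letters in the GENCODE transcript (GRCm38): a bulged C, 5 bases, the loop CAGTGN, and 5 bases that pair with the first 5. Capitals mark the bulged C and the loop, and 4 elements lie in the 3′ untranslated region of Tfrc, of which the first is printed.
Fth1, 5′ untranslated region, chr19:9982732-9982761, plus strand: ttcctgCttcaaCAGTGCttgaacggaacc
Ftl1, 5′ untranslated region, chr7:45459778-45459807, minus strand: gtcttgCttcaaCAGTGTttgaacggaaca
Slc40a1, 5′ untranslated region, chr1:45925464-45925493, minus strand: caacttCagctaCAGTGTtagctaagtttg
Tfrc, 3′ untranslated region, chr16:32631219-32631248, plus strand: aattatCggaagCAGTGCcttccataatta

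Fth1, Ftl1 and Slc40a1 held 1 element each in the 5′ region, and Hamp, Trf, Tfr2, Id1 and Smad7 held none by this rule. Of 20580 genes with a 5′ untranslated region, 31 held such a hairpin in a coding transcript (0.151%), and of 20978 genes with a 3′ region, 129 did (0.615%).

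Values are adjusted TPM, the share of a library's transcripts that a gene takes after division by transcript length, so that levels of different genes can be set beside each other. Trf was the highest of the 9 genes, with a median over the 16 libraries of 14118 adjusted TPM, and Hamp followed with 9336. The ranges of these neighbours overlapped, from 11574 to 35041 for Trf and from 5117 to 13366 for Hamp. Ftl1 had a median of 4870 and Fth1 of 2400, and each library had more Ftl1 than Fth1. Tfr2, the receptor that hepatocytes use as an iron sensor, had a median of 272.2 and Slc40a1 of 118.8. Id1, Smad7 and Tfrc lay far lower, with medians of 22.96, 6.843 and 5.202, and their ranges overlapped. Fth1 varied least, with a highest value 1.371 times the lowest, and Id1 had the widest fold range, at 4.563 times.

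**Figure D1:**
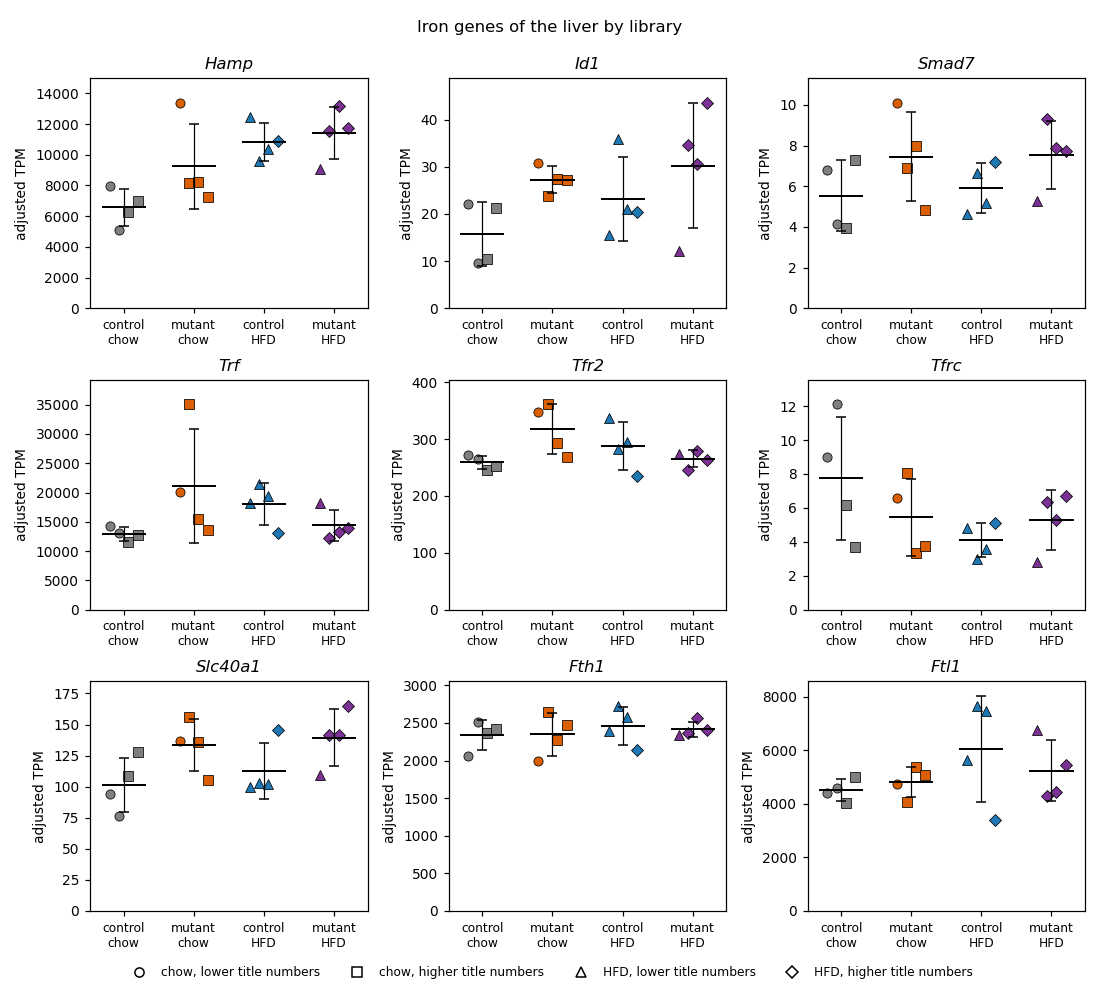
Adjusted TPM (vertical axis, from 0) of the 9 iron genes in each of the 16 libraries, by group. Points are libraries, their shape gives the run of title numbers, and bars are the mean with its SD (n = 4). Hamp of control HFD, from 9580 to 12483, lies above all of control chow, from 5117 to 7965.

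Title numbers of the libraries form a lower and a higher run within each diet. On HFD, the lower run holds control replicates 1, 2 and 3 and mutant replicate 1, and the higher run holds control replicate 4 and mutant replicates 2, 3 and 4. With genotype in the fit, 25.2% of all tested genes differed between these HFD runs at an adjusted p under 0.05 (limma). The labels do not say what the numbers stand for. On chow, limma called 0 genes between the runs, and 1478 had an unadjusted p under 0.05. Column sums ranged from 905897 to 1119703, no 2 libraries were identical, and Esr1 in liver ranged from 6.138 to 22.88 adjusted TPM, which does not check a deletion made in the brain. The hepatocyte gene Alb stood at 36044 adjusted TPM or more, and all 10 hepatocyte markers were detected in all libraries. As these are bulk samples, fewer cells of a type and less RNA per cell cannot be told apart.

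Hamp (ENSMUSG00000050440, chr7:30942368-30944032, minus strand) was higher on HFD than on chow in controls. Control chow libraries had 7965, 5117, 6252 and 7012 adjusted TPM, and control HFD libraries had 12483, 9580, 10354 and 10878. Every control HFD library lay above every control chow library. The group means were 6586 ± 1204 and 10824 ± 1228 (SD, n = 4), a log2 difference of 0.73 ± 0.211 (SE), with a 95% interval from 0.279 to 1.178. It did not pass the threshold over all genes (adjusted p = 0.215, limma), and its unadjusted p in that fit was 0.0035.

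Groups that did not overlap were found for 6.36% of all genes in this comparison, and 12.9% of all genes had an unadjusted p under 0.05. Without control HFD replicate 4, which left only the lower HFD run, the difference in Hamp was 0.72 with an adjusted p of 0.0636 (limma). With libraries weighted by how closely they followed their group means it was 0.68 with an adjusted p of 0.0168, and 2264 genes passed in that fit. The smallest weight, 0.2275, fell on control HFD replicate 4. Chow and HFD libraries share no run of title numbers, so diet and run cannot be told apart.

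In mutants the diets were closer. Mutant chow libraries had 13366, 8181, 8234 and 7239 adjusted TPM of Hamp, and mutant HFD libraries had 9093, 11578, 13166 and 11717. The highest mutant chow library lay above all mutant HFD libraries and the other 3 lay below them. The means were 9255 ± 2778 and 11388 ± 1690, a log2 difference of 0.33 with a 95% interval from -0.121 to 0.779 (adjusted p = 0.818, limma). The difference between genotypes in the response of Hamp to diet was -0.40, with an interval from -1.035 to 0.237 (adjusted p = 0.895), so a smaller response in mutants was not shown.

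Between genotypes on chow, Hamp was higher in mutants by 0.47 on the log2 scale, with a 95% interval from 0.017 to 0.916 (unadjusted p = 0.0429, adjusted p = 0.804, limma). The groups overlapped, since the lowest mutant library (7239) lay under the highest control library (7965). Within each run of title numbers on chow every mutant library lay above every control library: 13366 against 7965 and 5117 in the lower run, and 7239 to 8234 against 6252 and 7012 in the higher run. The runs were compared after the values were seen, and the lower run holds a single mutant library. How many of all genes show this order was not counted. Without mutant chow replicate 1 the difference was 0.28, so that library carried much of its size. On HFD the genotypes differed by 0.07, with an interval from -0.382 to 0.517 (adjusted p = 0.931). With the run as a term that value was -0.04.

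Id1 (ENSMUSG00000042745, chr2:152736251-152737410, plus strand), an inhibitor of DNA binding and a standard readout of BMP signalling, showed the largest genotype difference of the 9 genes on chow. Control chow libraries had 22.08, 9.54, 10.4 and 21.3 adjusted TPM, and mutant chow libraries had 30.74, 23.84, 27.35 and 27.11. Every mutant library lay above every control library. Groups that did not overlap, in either direction, were found for 3.05% of all genes in this comparison. The means were 15.83 ± 6.782 and 27.26 ± 2.818, a log2 difference of 0.84 ± 0.3527 (SE), with a 95% interval from 0.086 to 1.586. It did not pass over all genes (unadjusted p = 0.0313, adjusted p = 0.804, limma).

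On HFD the libraries of Id1 spread more widely. Control HFD libraries had 15.45, 35.9, 20.96 and 20.38 adjusted TPM, and mutant HFD libraries had 12.17, 34.72, 30.67 and 43.53. The groups overlapped, and the lowest of the 8 values was a mutant. The genotype difference was 0.30 with an interval from -0.446 to 1.055 (adjusted p = 0.775, limma), and -0.03 with the run as a term. Id1 was higher on HFD than on chow in controls by 0.55, with an interval from -0.199 to 1.301, and in mutants by 0.02, with an interval from -0.731 to 0.77.

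Smad7 (ENSMUSG00000025880, chr18:75367529-75395935, plus strand), the inhibitory SMAD that BMP signals induce and that restrains hepcidin, lay on the same side as Id1 on chow. In control chow, libraries had 6.792, 4.136, 3.922 and 7.299 adjusted TPM, and mutant chow libraries had 10.09, 6.893, 7.968 and 4.835. The groups overlapped, with a log2 difference of 0.37 and a 95% interval from -0.111 to 0.855 (unadjusted p = 0.122, limma). On HFD the genotype difference was 0.30 with an interval from -0.181 to 0.784, from means of 5.914 ± 1.219 and 7.554 ± 1.676. With the run as a term it was 0.07. In the higher run the 3 mutant libraries had 7.741 to 9.306 and the control had 7.208, and in the lower run the mutant had 5.273 and the controls had 4.616, 5.176 and 6.656.

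Trf (ENSMUSG00000032554, chr9:103204001-103230444, minus strand) encodes transferrin, the plasma protein that carries iron and that hepatocytes secrete. Control chow libraries had 14277, 13119, 11574 and 12671 adjusted TPM, and mutant chow libraries had 20153, 35041, 15402 and 13582. Of the mutant libraries, 3 lay above all controls, and replicate 2 stood far above the rest. The log2 difference was 0.61 with a 95% interval from 0.037 to 1.177 (unadjusted p = 0.0385, adjusted p = 0.804, limma). Without mutant chow replicate 2 it was 0.33.

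On HFD, Trf pointed the other way between genotypes. Control HFD libraries had 18240, 21384, 19352 and 13049 adjusted TPM, and mutant HFD libraries had 18268, 12245, 13313 and 13959. All 4 libraries of the lower run lay between 18240 and 21384 and all 4 of the higher run between 12245 and 13959, whatever the genotype. With genotype in the fit the runs differed by -0.53 ± 0.2803 (SE), which did not pass the threshold (adjusted p = 0.185, limma). The genotype difference was -0.31 (adjusted p = 0.697, limma), -0.05 with the run as a term and -0.55 with library weights (adjusted p = 0.0288). In the weighted fit 3926 genes passed for genotype on HFD. Its smallest weights, 0.2275 and 0.3294, fell on control HFD replicate 4 and mutant HFD replicate 1, each alone of its group in its run. The difference between diets in the genotype effect was -0.92 with an interval from -1.724 to -0.112 (unadjusted p = 0.0283, adjusted p = 0.895), and -0.68 with the run as a term.

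Tfr2 (ENSMUSG00000029716, chr5:137569840-137587481, plus strand), which senses transferrin-bound iron on hepatocytes and takes part in the control of hepcidin, differed little in size but was measured tightly. In control chow, libraries had 271.4, 265.9, 246.4 and 253.3 adjusted TPM, and mutant chow libraries had 348.3, 361, 293.6 and 269.3. The lowest mutant library lay just under the highest control library, and the log2 difference was 0.28 with a 95% interval from 0.027 to 0.543 (unadjusted p = 0.0328, adjusted p = 0.804, limma). On HFD it was -0.11, with means of 287.6 ± 42.08 in controls and 265.4 ± 14.82 in mutants. The difference between diets in the genotype effect was -0.39, with an interval from -0.755 to -0.025 (unadjusted p = 0.0378, adjusted p = 0.895). Tfr2 was -0.32 in that comparison with the run as a term.

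Tfrc (ENSMUSG00000022797, chr16:32608920-32632794, plus strand), the receptor by which most cells import transferrin and whose mRNA is kept when iron is low, was low in liver. Control chow libraries had 8.983, 12.1, 6.195 and 3.711 adjusted TPM, and control HFD libraries had 4.802, 2.97, 3.56 and 5.106. The groups overlapped through control chow replicate 4, the lowest of its group. Tfrc was lower on HFD by 0.70 on the log2 scale, a difference of -0.70 with a 95% interval from -1.375 to -0.02 (unadjusted p = 0.0444, adjusted p = 0.373, limma). In mutants, with libraries at 6.571, 8.081, 3.344 and 3.748 on chow and 2.811, 6.357, 5.299 and 6.683 on HFD, the diet difference was -0.02. The genotype differences were -0.41 on chow and 0.27 on HFD, and their intervals, from -1.089 to 0.266 and from -0.407 to 0.948, held 0.

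Slc40a1 (ENSMUSG00000025993, chr1:45908068-45926523, minus strand) encodes ferroportin, the only known iron exporter, and is expressed by Kupffer cells as well as hepatocytes. In control chow, libraries had 93.78, 76.72, 108.3 and 127.8 adjusted TPM, and mutant chow libraries had 137, 155.9, 135.6 and 105.4. The groups overlapped, with 3 mutant libraries above all controls and a log2 difference of 0.40, with a 95% interval from 0.021 to 0.779 (unadjusted p = 0.0399, adjusted p = 0.804, limma). On HFD it was 0.31, with an interval from -0.07 to 0.689 (adjusted p = 0.606).

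Control HFD libraries had 99.51, 102.9, 102.3 and 145.9 adjusted TPM of Slc40a1, and mutant HFD libraries had 109.7, 141.6, 141.6 and 165. These values followed the run of title numbers: 99.51 to 109.7 in the lower run and 141.6 to 165 in the higher run. The difference between the runs was 0.48 ± 0.154 (SE) with genotype in the fit (adjusted p = 0.0374, limma). With the run as a term the genotype difference was 0.07, and with library weights it was 0.49 (adjusted p = 0.0137). In the weighted fit 3926 genes passed, and its smallest weights fell on the lone library of each genotype in a run.

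Fth1 (ENSMUSG00000024661, chr19:9980598-9985098, plus strand), the ferritin heavy chain that oxidises stored iron, was the steadiest gene. Its group means were 2340 ± 199.6 in control chow, 2348 ± 285 in mutant chow, 2457 ± 255.1 in control HFD and 2417 ± 99.21 adjusted TPM in mutant HFD. The 4 differences between groups lay from -0.02 to 0.07 on the log2 scale, and the widest bound of their 95% intervals was 0.342. With libraries rescaled to the same sum, the sign of each but the diet difference in mutants turned.

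Ftl1 (ENSMUSG00000050708, chr7:45457944-45459884, minus strand), the ferritin light chain that helps form the iron core, was steady on chow and not on HFD. Chow libraries ranged from 4036 to 5010 adjusted TPM in controls and from 4083 to 5367 in mutants, a log2 difference of 0.09. Control HFD libraries had 5627, 7655, 7464 and 3407, and mutant HFD libraries had 6752, 4276, 4438 and 5451. Here too the runs stood apart, with 5627 to 7655 in the lower run and 3407 to 5451 in the higher run.

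The difference in Ftl1 between the runs was -0.77 ± 0.1792 (SE) with genotype in the fit (adjusted p = 0.00828, limma). The genotype difference on HFD was -0.16 (adjusted p = 0.822), 0.22 with the run as a term and -0.53 with library weights (adjusted p = 0.0174). In controls Ftl1 was higher on HFD by 0.36 (adjusted p = 0.528), by 0.61 without control HFD replicate 4 (adjusted p = 0.0559), and by 0.63 with library weights (adjusted p = 0.0182). In the weighted fits 3926 genes passed for genotype on HFD and 2264 for diet in controls. Ftl1-ps1 (chr13:74399694-74407346), a retrotransposed copy that was 99.6% identical to Ftl1 over 910 bases, stood at 0.51 to 5.102 adjusted TPM. It held at most 0.083% of their sum, and the 4 exact permutation tests of the sum gave adjusted p-values of 0.629.

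**Figure D2:**
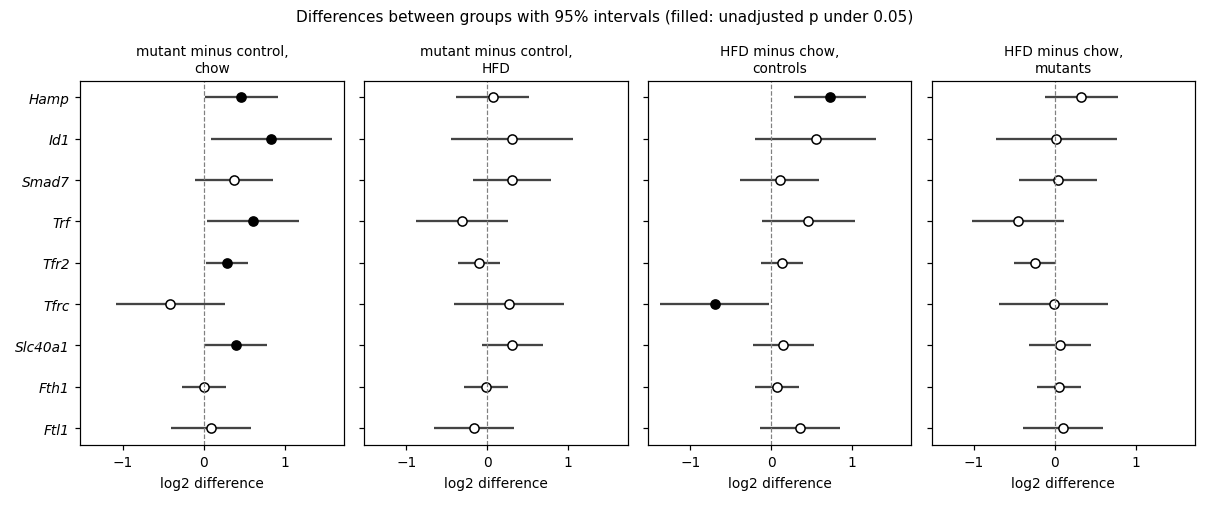
Log2 differences (horizontal axis) of the 9 iron genes in 4 comparisons, with lines for 95% intervals and filled points for an unadjusted p under 0.05. On chow, 5 of 9 genes are filled and all 5 lie above 0, and in controls Hamp (0.73) and Tfrc (-0.70) are filled for diet.

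Counted over the members, limma called 0 of 9 genes in each of the 5 comparisons at an adjusted p under 0.05. Of all tested genes, 0.0236% were called between genotypes on chow and 0.0157% between genotypes on HFD. The share was 0% for either diet comparison and for the interaction. At an unadjusted p under 0.05, 5 of 9 members were found for genotype on chow against 6.08% of all genes, and all 5 (Hamp, Id1, Trf, Tfr2 and Slc40a1) were higher in mutants. Between genotypes on HFD 0 of 9 were found against 8.6%. Between diets, 2 of 9 were found in controls against 12.9% and 0 of 9 in mutants against 6.86%. The interaction gave 2 of 9 against 4.21%. Groups that did not overlap were found for Id1 alone on chow, for none on HFD against 2.69% of all genes, for Hamp alone between diets in controls, and for none between diets in mutants against 3.53%.

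The median difference of the 9 members between genotypes on chow was 0.372, beside 0.020 over all tested genes. On HFD it was 0.067 beside 0.016. Between diets it was 0.153 in controls beside -0.009, and 0.033 in mutants beside -0.011. Rescaling every library to the same sum moved the median of all genes to -0.156 for diet in controls and to 0.129 for the interaction, and the differences of Tfr2, Slc40a1, Smad7 and Fth1 between diets in controls then turned negative, while that of Hamp was 0.55 or more under every alternative run.

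Ratios of 2 members within a library do not depend on scaling between libraries, and 3 were computed after the values had been seen. The ratio of Ftl1 to Fth1, the light against the heavy ferritin chain, was 1.54 to 2.38 on chow. On HFD it was 2.355 to 2.895 in the lower run and 1.596 to 2.262 in the higher run. The ratio of Tfr2 to Tfrc was 40.05 ± 20.17 in control chow and 73.59 ± 20.89 in control HFD, a 1.94-fold difference (exact two-sided permutation p = 0.0571, adjusted p = 0.343 over 12 tests).

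In the lower HFD run the ratio of Tfr2 to Tfrc was 70.31 to 97.11 and in the higher run 38.58 to 52.72, so the runs stood apart here too. The ratio of Hamp to Slc40a1, the hormone against its target, was 66.05 ± 13.56 in control chow and 98.57 ± 21.11 in control HFD (exact permutation p = 0.0571, adjusted p = 0.343). The smallest p that 4 against 4 libraries allow is 0.0286.

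**Figure D3:**
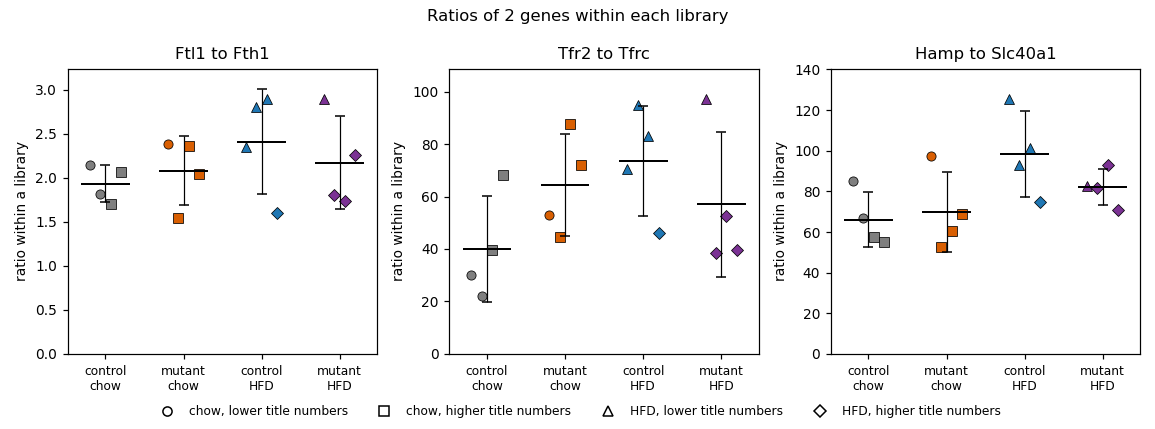
Ratio of 2 genes within each library (vertical axis, no unit, from 0) by group, with point shapes for the run of title numbers and bars for the mean with its SD (n = 4). On HFD the lower run lies above the higher run for Ftl1 to Fth1 (2.355 to 2.895 against 1.596 to 2.262) and for Tfr2 to Tfrc (70.31 to 97.11 against 38.58 to 52.72).

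How Hamp moved beside the BMP readouts was asked over libraries, with 7 pairs of genes in 3 sets of libraries and p-values adjusted over these 21 relations. Over the 8 chow libraries, Hamp went with Id1 (Pearson r = 0.80, exact permutation p = 0.00407, adjusted p = 0.0142; Spearman rho = 0.93, exact p = 0.00223, adjusted p = 0.0117). It also went with Smad7 (r = 0.86, exact permutation p = 0.00255, adjusted p = 0.0107; rho = 0.83, exact p = 0.0154, adjusted p = 0.0445). Without the 2 libraries farthest from the median of Hamp, these r were 0.80 (exact permutation p = 0.0514) and 0.79 (exact permutation p = 0.0542), over 6 libraries. These sets hold both genotypes, and 4 libraries of a genotype are too few for an r within it. Permutations ran over all libraries of a set whatever their group, so differences between group means enter each r and p.

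Over all 16 libraries, r was 0.59 for Hamp with Id1 (permutation p = 0.0156, adjusted p = 0.0299; rho = 0.51, permutation p = 0.044, adjusted p = 0.084). For Hamp with Smad7 it was also 0.59 (permutation p = 0.0157, adjusted p = 0.0299; rho = 0.56, permutation p = 0.0267, adjusted p = 0.0622). Without control chow replicates 2 and 3, the farthest from the median of Hamp, they were 0.23 and 0.31, so both rest on those libraries. In the 12 libraries left without the lower HFD run, r was 0.80 (permutation p = 0.00087, adjusted p = 0.00609; rho = 0.82, adjusted p = 0.0117) and 0.84 (permutation p = 0.00039, adjusted p = 0.0042; rho = 0.84, adjusted p = 0.0117). That set was chosen after the values were seen, and its p-values do not account for the choice. The lower HFD run, left out of that set, had Hamp and Id1 at 12483 and 15.45, 9580 and 35.9, 10354 and 20.96, and 9093 and 12.17 adjusted TPM. An r over the HFD libraries alone, which form 2 runs of 4, was planned but not computed. The relation within that diet is therefore not shown.

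Bmp6, the ligand that iron-loaded liver raises, went with Hamp over the 16 libraries (r = 0.61, permutation p = 0.0132, adjusted p = 0.0299; rho = 0.60, permutation p = 0.017, adjusted p = 0.0445), and r was 0.65 without the 2 farthest. Both genes had their lowest group mean in control chow (Hamp 6586, Bmp6 3.339) and their highest in mutant HFD (11388 and 5.499). Over the 8 chow libraries r was 0.59 (exact permutation p = 0.147, adjusted p = 0.237; rho = 0.40, exact p = 0.327, adjusted p = 0.528), and 0.12 without the 2 farthest. Saa1, an acute-phase gene that interleukin-6 drives through STAT3, gave r = 0.19 over 16 libraries (permutation p = 0.479, adjusted p = 0.637; rho = 0.19, permutation p = 0.484, adjusted p = 0.597). With the chow libraries alone, r of Hamp with Saa1 was 0.39 (exact permutation p = 0.278, adjusted p = 0.418). The library with the most Saa1, mutant chow replicate 2 at 20634 adjusted TPM, had 8181 of Hamp. Id1 and Smad7 went together (r = 0.78 over 16 libraries, permutation p = 0.0004, adjusted p = 0.0042; rho = 0.72, permutation p = 0.00221, adjusted p = 0.0117), with r = 0.63 without the 2 farthest. Over the chow libraries alone their r of 0.81 was 0.33 without control chow replicates 2 and 3. For Fth1 with Ftl1 r was 0.41 (permutation p = 0.119, adjusted p = 0.208; rho = 0.31, permutation p = 0.249, adjusted p = 0.437) and for Tfrc with Trf it was -0.08 (permutation p = 0.776, adjusted p = 0.815; rho = -0.20, permutation p = 0.448, adjusted p = 0.589).

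**Figure D4:**
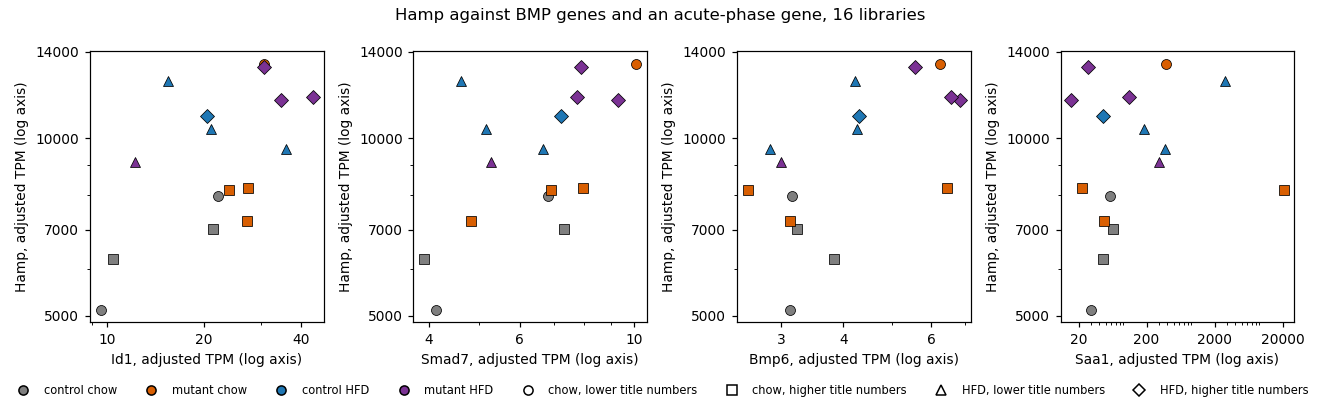
Hamp against Id1, Smad7, Bmp6 and Saa1 in the 16 libraries, in adjusted TPM on log axes, with colours for groups and shapes for the run of title numbers. Over all 16 libraries r is 0.59 with Id1, 0.59 with Smad7, 0.61 with Bmp6 and 0.19 with Saa1. Over the 8 chow libraries these are 0.80, 0.86, 0.59 and 0.39.

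The tested genes most like Hamp over the 16 libraries, by Pearson r on the log2 scale among 12703 genes and with no test, were Akr1b8 (0.797), Apoa4 (0.786), Kat14 (0.768), Sytl1 (0.765) and E2f1 (0.746). The BMP target Id3 ranked 11th with 0.717. Bmp6 ranked 76th, Id1 101st and Smad7 105th. Other BMP and SMAD genes ranked lower: Atoh8 175th (0.541), Smad6 1051st (0.348) and Bmp2 3469th (0.159).

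The other genes of the iron pathways were taken from 7 lists with 79 genes beside the members, of which 75 had a row and 71 were tested. None passed over all genes in any of the 5 comparisons (limma), and those with an unadjusted p under 0.05 numbered 10 between genotypes on chow (6.08% of all genes), 7 between genotypes on HFD (8.6% of all genes), 6 between diets in controls (12.9% of all genes), 6 between diets in mutants (6.86% of all genes), and 5 in the interaction (4.21% of all genes). Of the BMP and SMAD list, 3 of 20 tested genes had an unadjusted p under 0.05 on chow, against 6.08% of all genes, and all 3 were higher in mutants. These were Smad6, Id3 and Fgl1. Fgl1 had the largest difference of the 3, at 1.38 without overlap (unadjusted p = 0.0256, adjusted p = 0.804, limma). Smad6, another inhibitory SMAD, had 4.773 to 7.362 adjusted TPM in control chow and 7.889 to 10.4 in mutant chow, a log2 difference of 0.55 without overlap (unadjusted p = 0.0045, adjusted p = 0.636, limma). The ligands Bmp6 and Bmp2 differed by 0.30 and 0.19, and the hepatocyte regulators Hjv, Hfe and Tmprss6, which set how strongly BMP signals reach hepcidin, by 0.15, 0.08 and 0.09, all with intervals that held 0.

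On HFD, Id2, another inhibitor of DNA binding, was lower in mutants by 0.60 (a difference of -0.60, groups of 183.1 to 256.7 and 126.9 to 171.4 adjusted TPM without overlap, unadjusted p = 0.00176, adjusted p = 0.524, limma), while Id4 was higher by 0.73 (unadjusted p = 0.011) at levels of 0.8562 to 3.448 in mutants. In controls, Id3 was higher on HFD by 0.93, with 29.02 to 47.77 on chow and 62.91 to 84.68 on HFD and no overlap (unadjusted p = 0.028, adjusted p = 0.324). Id2 was higher there by 0.45 (unadjusted p = 0.0128). On chow Id3 differed between genotypes by 0.82 with overlap (unadjusted p = 0.0472).

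Among 12 tested genes of uptake, reduction and plasma transport, 4 had an unadjusted p under 0.05 on chow, against 6.08% of all genes. These were Cp, Slc39a14, Lcn2 and Steap4, all higher in mutants, and the list median was 0.535. Lcn2 and Steap4 also stand in the acute-phase list. Cp, the ferroxidase ceruloplasmin that loads iron onto transferrin, had 470.1 to 571.8 adjusted TPM in control chow and 689.7 to 3216 in mutant chow, a difference of 1.17 without overlap (unadjusted p = 0.00825, adjusted p = 0.709, limma). Slc39a14, the importer of iron that is not bound to transferrin, differed by 0.58, with 117.4 to 161 against 179.7 to 330.1 and no overlap (unadjusted p = 0.0134). On HFD these genes had 1 of 12 with an unadjusted p under 0.05, against 8.6% of all genes, and a list median of -0.079. Between diets in mutants, 12 of 12 lay below 0, with a median of -0.401 and Slc39a14 at -0.53 (unadjusted p = 0.0228). In the same comparison 16 of 16 acute-phase genes lay below 0, with a median of -0.961 and 7 at an unadjusted p under 0.05, and 12 of 12 Kupffer cell and macrophage markers did, with a median of -0.519. Their part in the uptake values was not tested.

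In the interleukin-6 and STAT3 route, 1 of 7 tested genes had an unadjusted p under 0.05 on chow, against 6.08% of all genes. Stat3 was higher in mutants there by 0.49 (unadjusted p = 0.0215). On HFD 2 of 7 had an unadjusted p under 0.05, 1 higher and 1 lower in mutants, against 8.6% of all genes. Of the 7, 6 lay above 0 on HFD, with a list median of 0.231, and Socs3 was the 1 below. Socs3, the inhibitor that STAT3 induces, was lower in mutants on HFD by 1.19 (a difference of -1.19, unadjusted p = 0.0255), and the difference between diets in its genotype effect was -2.12 (unadjusted p = 0.00698, adjusted p = 0.895, limma). Socs3 also differed between the HFD runs, by -1.215 with genotype in the fit (unadjusted p = 0.0289, adjusted p = 0.0899, limma).

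Among 9 genes of mitochondrial iron, Glrx5, a glutaredoxin of iron-sulphur cluster assembly, was higher on HFD in both genotypes. Its control values were 53.71 to 63.87 adjusted TPM on chow and 83.31 to 140.4 on HFD, a difference of 0.82 without overlap (unadjusted p = 0.00041, adjusted p = 0.163, limma). In mutants it differed by 0.55 without overlap (unadjusted p = 0.00892, adjusted p = 0.623). Iscu, the scaffold of these clusters, differed by 0.51 in controls (unadjusted p = 0.00571) and between genotypes on HFD by -0.45 (unadjusted p = 0.0125). Slc25a37, which brings iron into mitochondria, differed by -0.39 between genotypes on chow (unadjusted p = 0.0192). Iscu also differed between the HFD runs, by -0.56 (adjusted p = 0.00233).

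Of 17 haem genes, 1 had an unadjusted p under 0.05 in each comparison but genotype on HFD, where limma gave 0, against 4.21% to 12.9% of all genes over the 5 comparisons. Cpox, an enzyme of haem synthesis, was lower on HFD in controls, a difference of -0.58 with 80.62 to 135.2 on chow and 62.22 to 69.29 adjusted TPM on HFD and no overlap (unadjusted p = 0.000595, adjusted p = 0.172, limma). Alas1, the first enzyme of that pathway, differed by 0.81 between diets in mutants (unadjusted p = 0.0281). The 3 iron regulatory protein genes and the 3 genes of ferritin turnover had none in any comparison. The difference of Aco1, which encodes iron regulatory protein 1, between groups lay from -0.14 to 0.04.

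**Figure D5:**
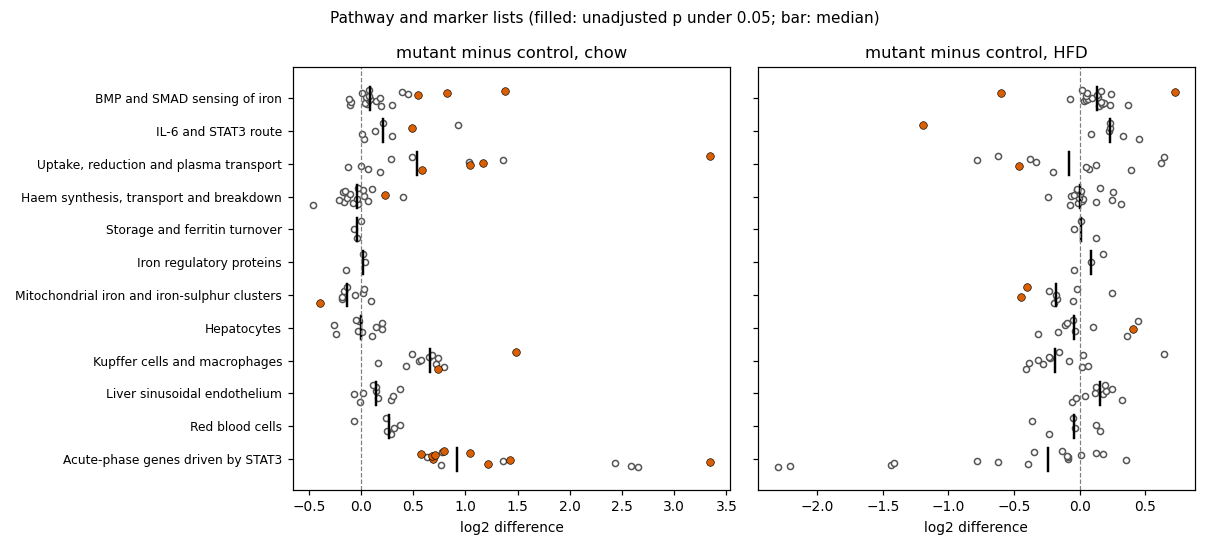
Log2 difference of mutant minus control (horizontal axis) for each tested gene of 7 iron lists and 5 marker lists, on chow (left) and on HFD (right). Filled points have an unadjusted p under 0.05, and bars are list medians. On chow the acute-phase list has a median of 0.923 and the uptake list one of 0.535, and on HFD these are -0.238 and -0.079.

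Markers of other cells and of an acute-phase state were set beside these values. On chow 16 of 16 acute-phase genes lay above 0 in mutants, 9 of 16 with an unadjusted p under 0.05 against 6.08% of all genes. Their summed level was 9272 to 10099 adjusted TPM in controls and 10289, 10405, 18586 and 106545 in mutants, the last in replicate 2, the library with the highest Trf. In control HFD the sum ranged from 8619 to 24034 and in mutant HFD from 8882 to 12726. The acute-phase list shares Hp, Lcn2 and Steap4 with the uptake list, and the Kupffer list shares Cd163 with it.

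Of 12 markers of Kupffer cells and macrophages, which also express Slc40a1, 12 lay above 0 on chow, with 2 at an unadjusted p under 0.05 against 6.08% of all genes, and sums of 252.5 to 773.3 in controls and 413.6 to 1484 in mutants. On HFD 4 of 12 lay above 0, and sums were 467.9 to 861.8 and 428.4 to 670.3. Sums of 10 endothelial markers ranged from 178.8 to 286.2 in control chow, 224.9 to 306.5 in mutant chow, 225.7 to 290.7 in control HFD and 233.9 to 305.5 in mutant HFD. The part of these markers in the values of Hamp, Trf and Slc40a1 was not tested.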

How the data were processed

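Total RNA from liver was purified with a column kit, and NEBNext Ultra II libraries were sequenced on a NovaSeq instrument. The submitters' processing notes name mm10, kallisto and sleuth. Their versions, the annotation release and the filter are not given in the sources used here. The table deposited by the authors holds a signal per gene, taken here as size-factor-adjusted TPM because values are fractional and column sums are unequal. Sequencing depth is unknown, and no counting interval was computed. Because kallisto divides reads among like transcripts, Hamp and Ftl1 are uncertain against their copies.

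Groups follow the labelled genotype and treatment. Replicates were numbered in accession order and were not paired. log2(value + 1) of 12704 genes at 1 or more in at least 4 libraries was fitted with limma 3.58.1 in R 4.3.3, with 4 group means and a trended variance, adjusted by the Benjamini-Hochberg method at 0.05. The fit was tested on simulated data. Single ratios and relations were tested by permutation (100000 resamples over 12 or 16 libraries). Positions are from GENCODE vM21 and promoters from RefSeq. Alignments used Biopython 1.88.

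The members and lists were chosen with earlier results of these data known, and the comparison of title-number runs, the ratios and the 12-library relations after the values were seen. Named genes are the members, copies of members, up to 5 pathway genes with the smallest p in each comparison, and the 5 genes most like Hamp. The listed regulators of hepcidin, Atoh8, Fgl1, Aco1, Cd163 and Steap4 were named after their values were seen.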

Additional observations from a re-analysis of the deposited data

Results flagged for a closer look

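In 36 groups of 4 values (9 genes in 4 groups), the gap of the highest or lowest library to its nearest neighbour was compared with the range of the group, and 2 exceeded Dixon's 95% critical value, which chance exceeds in about 1 in 20 groups. Hamp in mutant chow replicate 1 stood at 13366 adjusted TPM, with the other 3 libraries at 7239 to 8234 and a gap of 0.838 of the range. Without it the genotype difference on chow was 0.28 in place of 0.47. The same library held the highest Smad7 (10.09) and the highest Id1 (30.74) of its group. Slc40a1 in control HFD replicate 4 stood at 145.9, with the others at 99.51 to 102.9 and a gap of 0.926 of the range. This library is the only control HFD library in the higher run of title numbers, whose 3 mutant libraries had 141.6 to 165. Without it, Slc40a1 differed by 0.02 between diets in controls in place of 0.15. No difference of genotype effects between diets passed the threshold for any member (limma).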

How the results depend on the processing

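Of 45 differences (9 genes in 5 comparisons), 24 kept their sign under every alternative. Over 765 refits, 700 kept both sign and side of the threshold, 7 came to pass it, and 58 turned in sign. The 7 all came from library weights, with 3 members called for genotype on HFD and 4 for diet in controls, where 3926 and 2264 genes passed in all. The smallest weights were 0.2275 for control HFD replicate 4 and 0.3294 for mutant HFD replicate 1, the lone members of their group in a run of title numbers. Without control HFD replicate 4, 928 genes and 0 members passed for diet in controls.

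With the run as a term the sign turned on HFD for Hamp (-0.04), Tfrc (-0.05), Tfr2 (0.00), Fth1 (0.03), Ftl1 (0.22) and Id1 (-0.03), on chow for Fth1 (-0.04), and in the interaction for Fth1 (0.07) and Ftl1 (0.13). With libraries rescaled to the same sum it turned for diet in controls in Tfr2 (-0.04), Slc40a1 (-0.02), Smad7 (-0.04) and Fth1 (-0.11), for the interaction in Slc40a1 (0.07), Smad7 (0.07) and Fth1 (0.15), and for genotype in Fth1 (-0.08 on chow, 0.06 on HFD). With weights it turned for Tfrc (0.36) and Ftl1 (-0.07) between diets in mutants, for Slc40a1 (0.18) and Smad7 (0.10) in the interaction, and for Fth1 on chow (-0.01). With median-of-ratios factors it turned for Fth1 on chow (-0.04) and Tfrc between diets in mutants (0.00).

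Leaving out 1 library at a time gave ranges across 0 for Hamp on HFD (-0.01 to 0.17), between diets in mutants for Tfrc (-0.18 to 0.21), Slc40a1 (-0.05 to 0.17), Fth1 (-0.03 to 0.11), Ftl1 (-0.03 to 0.19), Id1 (-0.19 to 0.39) and Smad7 (-0.13 to 0.18), for Smad7 between diets in controls (-0.02 to 0.23), for Fth1 between genotypes on chow (-0.06 to 0.08) and on HFD (-0.08 to 0.03), and in the interaction for Slc40a1 (-0.21 to 0.04), Fth1 (-0.10 to 0.04) and Smad7 (-0.24 to 0.07). For relations, r without the 2 farthest libraries was 0.23 for Hamp with Id1, 0.31 for Hamp with Smad7 and 0.08 for Tfrc with Trf. With no library left out of the set, r over the 8 chow libraries was 0.59 for Hamp with Bmp6 (no longer past the threshold), -0.16 for Fth1 with Ftl1 and 0.22 for Tfrc with Trf, and r over the 12 libraries was 0.22 for Tfrc with Trf. The cause of these changes was not tested. The relation of Hamp with Hamp2 and their sum could not be computed, as Hamp2 was not analysed here. No paired analysis was possible because the labels give no replicate numbers. Depth is unknown, so counting error could not be separated from the spread between libraries.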
